A study of Homo sapiens with 2 samples.

Results

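Prefoldin is the cytosolic co-chaperone that hands newly made actin and tubulin chains to the chaperonin TRiC/CCT. Its members were taken by symbol as PFDN1, PFDN2, PFDN4, PFDN5, PFDN6 and VBP1, and all 6 were found among the 57736 genes of both deposited tables, each under 1 Ensembl identifier. Poly(A)+ RNA was sequenced from wild type HEK293T cells, an immortal line of human embryonic kidney origin in which the large T antigen of SV40 is expressed. Per the labels, the culture had been held at 43 °C for 20 min and then returned to 37 °C for 6 h. The paper describes a longer time at 43 °C. Both libraries belong to this 1 group and were made from cells lysed apart. Replicate 1 and replicate 2 hold 22529828 and 26890199 expected counts, respectively. Cells without the heat treatment are not analysed here. The values describe the level of each subunit after recovery and its spread between the libraries. Nothing in the labels says that the replicates came from independent treatments, so the spread may be partly technical.

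The prefoldin complex is a jellyfish-shaped hexamer in which every subunit sends out a coiled coil, and the tips of these coils hold the unfolded client. A pair of alpha-type subunits, PFDN5 and VBP1 (also called PFDN3), forms the core, and the 4 beta-type subunits PFDN1, PFDN2, PFDN4 and PFDN6 sit around it. Each of the subunits is encoded by its own gene. PFDN2 and PFDN6 are also built into a prefoldin-like complex with URI1, UXT and PDRG1, which works with the R2TP chaperone in the assembly of RNA polymerases.

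The labelled cell type was checked first. Levels are given as TPM, a transcript abundance that corrects for length and is scaled to a common sum. Of 8 marker genes of HEK293 cells, 6 were matched and all 6 were detected (each library at 1 TPM or more), from PAX2 at 7.35 ± 0.69 TPM (SD, n = 2) to VIM at 647 ± 51.6. Of 6 markers of mature kidney, 0 were detected, with the highest, AQP1, at 0.54 ± 0.042 TPM. Of 5 matched markers of other cells, COL1A1 was detected at 22.5 ± 2.22 TPM, while PTPRC and CD3E were listed at 0. Among 8 heat-inducible chaperone genes, 6 were detected, with HSPA1B highest at 361 ± 21.7 TPM and HSPA6 lowest at 0.050 ± 0.014. HSPA1A was at 0.76 ± 0.41 TPM, and how reads were divided between it and HSPA1B was not tested.

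The genes are scattered over the genome. In GRCh37, PFDN1 (ENSG00000113068) lies on chromosome 5 at 139624620 to 139682698, PFDN2 (ENSG00000143256) on chromosome 1 at 161070346 to 161087845, and PFDN4 (ENSG00000101132) on chromosome 20 at 52824626 to 52844591. PFDN5 (ENSG00000123349) lies on chromosome 12 at 53689075 to 53693236, PFDN6 (ENSG00000204220) on chromosome 6 at 33257079 to 33266178, and VBP1 (ENSG00000155959) on chromosome X at 154425284 to 154468122. Gene structure followed the subunit type. The canonical transcripts of both alpha-type genes have 6 exons, and those of all 4 beta-type genes have 4. The alpha-type proteins have 154 residues (PFDN5) and 197 residues (VBP1). The beta-type proteins have 122 residues (PFDN1), 129 (PFDN6), 134 (PFDN4) and 154 (PFDN2). The span of the genes was less uniform, from 4162 bp for PFDN5 to 58079 bp for PFDN1.

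Promoter windows of 300 bases, from 250 before to 50 after the start, were found in RefSeq (GRCh38.p14) for 5 of the members: PFDN1, PFDN4, PFDN5, PFDN6 and VBP1. The stretch around the start is shown for each because 3 of the 5 share the letters AAGATGGC there, which are written in capitals. The stretches run 5′ to 3′ on the gene's strand from 60 bases before the start to 40 bases from it on, or 30 bases for PFDN6, and use the most downstream of the starts listed. They lie at chr5:140303062-140303161 (minus strand) for PFDN1, chr20:54208027-54208126 (plus strand) for PFDN4, chrX:155216400-155216499 (plus strand) for VBP1, chr12:53295482-53295581 (plus strand) for PFDN5 and chr6:33289541-33289630 (plus strand) for PFDN6.
PFDN1: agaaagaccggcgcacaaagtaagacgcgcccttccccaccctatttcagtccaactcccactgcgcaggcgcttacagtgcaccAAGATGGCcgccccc
PFDN4: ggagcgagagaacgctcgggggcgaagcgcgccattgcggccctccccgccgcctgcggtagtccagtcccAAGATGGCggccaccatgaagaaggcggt
VBP1: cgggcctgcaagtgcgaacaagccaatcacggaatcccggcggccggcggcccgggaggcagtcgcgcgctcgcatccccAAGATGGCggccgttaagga
PFDN5: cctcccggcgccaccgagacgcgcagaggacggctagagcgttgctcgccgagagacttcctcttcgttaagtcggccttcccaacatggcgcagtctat
PFDN6: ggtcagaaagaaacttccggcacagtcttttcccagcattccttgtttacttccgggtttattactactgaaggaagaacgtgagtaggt

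The ATG inside AAGATGGC is the start codon of the canonical transcript in PFDN1, PFDN4 and VBP1. Counted from 1 at the start of transcription, the motif begins at base 26 in PFDN1, 12 in PFDN4 and 21 in VBP1. Searched on both strands, it is present in the windows of 3.52% of 27305 genes. PFDN5 also begins its coding sequence close to the start, at base 27, but in other letters. The 3 members with the motif were the lowest of these 5 in mean TPM, at 24.3 to 60.2, and the 2 without it were at 72.0 and 118. PFDN4, with the motif, and PFDN6, without it, could not be placed apart in TPM by the bounds described below. In read counts of replicate 2 the split did not hold, with 926 for VBP1 and 883 for PFDN6. This is a description of 5 genes with no test.

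Heat shock elements, the binding units of the heat shock factors, were searched in the 300-base windows. PFDN6 has 2 listed starts and VBP1 has 3, and a gene was counted if any of its windows held the letters. The pair TTCNNGAA is found in none of the 5 members and in 9.46% of all genes. The pair GAANNTTC is found in PFDN6 alone, where it overlaps a copy of CCGGAAG (the core letters of ETS sites) read on the other strand, and in 8.21% of all genes. A run of 3 such units in alternating orientation is found in 0 of the 5 and in 0.608% of all genes. Of the other motifs searched on both strands, CCGGAAG is present in PFDN5 and PFDN6 and in 12.2% of all genes. The NRF1 motif is present in PFDN1 and in 6.98% of all genes. CCAAT is present in PFDN4 and VBP1 and in 39.7% of all genes, and TATAAA in 0 of the 5 and in 13.99%. Such matches describe letters, and no binding was measured.

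All 6 subunits were expressed after recovery, and they were present at unequal levels. In bulk RNA, a smaller number of expressing cells and less RNA per cell cannot be told apart. PFDN5, an alpha-type subunit also known as a partner of MYC, was highest with 125.74 TPM in replicate 1 and 110.13 in replicate 2 (118 ± 11.0 TPM; SD, n = 2). VBP1, the other alpha-type subunit, which was found as a partner of the VHL protein, was lowest with 18.66 TPM in replicate 1 and 29.88 in replicate 2 (24.3 ± 7.93 TPM). In TPM the core pair therefore stood at the extremes of the complex, and the beta-type subunits lay between them. In read counts, which are not scaled to length, VBP1 was at rank 3 in replicate 2. TPM was not corrected for GC content, which was lowest in VBP1 (36.0%), and its part in this order was not tested.

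PFDN2, shared with the URI1 complex, was at 76.79 TPM in replicate 1 and 81.09 in replicate 2 (78.9 ± 3.04 TPM). PFDN6, shared with the same complex, was at 76.16 TPM in replicate 1 and 67.88 in replicate 2 (72.0 ± 5.85 TPM). These were the highest of the beta-type subunits in both libraries. PFDN4 was at 62.18 TPM in replicate 1 and 58.19 in replicate 2 (60.2 ± 2.82 TPM). PFDN1 was at 44.86 TPM in replicate 1 and 55.21 in replicate 2 (50.0 ± 7.32 TPM). The order of all 6 subunits was the same in both libraries.

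**Figure D1:**
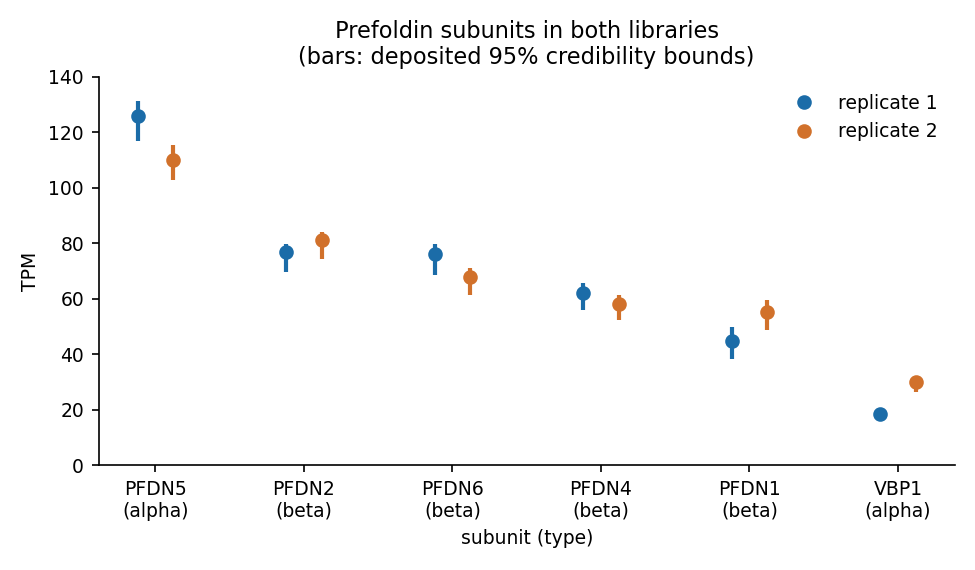
Levels of the prefoldin subunits in TPM (y axis), ordered by mean, in replicate 1 (blue) and replicate 2 (orange). Points are the deposited TPM and bars the deposited 95% credibility bounds. PFDN5 lies above and VBP1 below the beta-type subunits in both libraries.

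The order was read against the 95% credibility bounds that the quantifier gave for each library, which cover read sampling and read sharing but not biological spread. PFDN5 ran from 102.9 to 131 TPM over the bounds of both libraries, and PFDN2, the next below it, from 69.8 to 84.1. PFDN1 ran from 38.5 to 59.6 TPM and VBP1 from 17.1 to 32.3. These are the 2 of 5 neighbouring pairs in the order whose ranges did not overlap. The neighbours PFDN2 and PFDN6, PFDN6 and PFDN4, and PFDN4 and PFDN1 overlapped and could not be placed apart. Over all 15 pairs of subunits, 12 had ranges that did not overlap, among them PFDN2 above PFDN4 by 1.31 ± 0.112 times and PFDN6 above PFDN1 by 1.46 ± 0.331 times (ratio of TPM within a library, SD, n = 2).

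The spread among subunits was itself uneven between libraries. The highest subunit exceeded the lowest 6.74 times in replicate 1 and 3.69 times in replicate 2 (5.21 ± 2.16; SD, n = 2). Within the beta-type group the corresponding ratio was 1.71 in replicate 1 and 1.47 in replicate 2. The smaller spread of the complex in replicate 2 came with a higher VBP1 and a lower PFDN5. These levels were not corrected for GC content, with which the library ratio moved over all genes. The median log2 count ratio (replicate 2 over replicate 1) of genes of like GC content was 0.86 for VBP1 and -0.046 for PFDN5. The part of GC content in the smaller spread was not tested. VBP1 held 4.61% of the summed TPM of the 6 subunits in replicate 1 and 7.43% in replicate 2, and PFDN5 held 31.1% and 27.4%.

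The alpha-type and beta-type groups nevertheless had similar means. The 2 alpha-type subunits averaged 72.2 TPM in replicate 1 and 70.0 in replicate 2. The 4 beta-type subunits averaged 65.0 TPM in replicate 1 and 65.6 in replicate 2. The ratio of the means was 1.11 in replicate 1 and 1.07 in replicate 2 (1.09 ± 0.031; SD, n = 2). The alpha-type mean is that of a high and a low gene, and neither gene was near it. The summed TPM of the 6 subunits was 404 in replicate 1 and 402 in replicate 2.

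The subunits were above most of the expressed transcriptome. The median of the mean TPM over 12367 detected protein-coding genes was 18.6, and the median over the 6 subunits was 66.1. PFDN5 was above 91.1% of the detected protein-coding genes, PFDN2 above 85.7%, PFDN6 above 84.4%, PFDN4 above 81.0% and PFDN1 above 77.0%. VBP1 was above 58.0% of them.

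Read counts per gene, which are not scaled to transcript length, gave another order. PFDN5 led in each, with 1283 counts in replicate 1 and 1275 in replicate 2. PFDN2 had 878 and 1048, and PFDN6 had 877 and 883. PFDN1 had 696 and 856, and PFDN4 had 631 and 673. VBP1 had 557 and 926, which placed it at rank 6 in replicate 1 and at rank 3 in replicate 2. VBP1 has the longest transcripts of the complex, with a deposited mean length of 1685 bases in replicate 1, against 608 bases for PFDN5. In CPM (counts scaled to the library total) PFDN5 exceeded VBP1 2.30 times in replicate 1 and 1.38 times in replicate 2, against 6.74 and 3.69 times in TPM. The lowest subunit in CPM was VBP1 in replicate 1 and PFDN4 in replicate 2, where PFDN5 exceeded PFDN4 1.89 times.

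The deposited lengths are means over the transcripts of a gene, weighted by their estimated abundance. Those of PFDN4 (605 bases in each library) and PFDN1 (899 bases in replicate 1 and 795 in replicate 2) fall short of the canonical transcripts in the annotation used here, which have 1230 and 1336 bases. VBP1 lay on either side of its canonical transcript of 1616 bases, with 1685 bases in replicate 1 and 1541 in replicate 2. For PFDN2 the deposited length was 675 bases in replicate 1 against 598 in that annotation. Whether more weight on short transcripts or other gene models gave the shorter lengths was not tested, and the TPM of a gene depends on the length used.

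Reads were assigned to the subunits with little ambiguity. The posterior SD of the count, the quantifier's uncertainty in sharing reads among genes, was at most 2.38 reads, for PFDN6 in replicate 2. Of the 50-base sequences in the reference transcripts, 2.68% of those of PFDN1 and 0.930% of those of PFDN5 occur in other listed genes, and 0% of those of PFDN2, PFDN4, PFDN6 and VBP1 do. The PFDN1 sequences are shared with the processed pseudogene PFDN1P1, to which 3.77 and 6.55 counts were assigned in the libraries. How strand was treated in counting was not stated, so exons shared with a gene on the opposite strand leave a further uncertainty. Such exon overlap made up 24.5% of the annotated exon bases of PFDN6 (with RGL2, at 22.47 and 19.62 TPM), 11.6% of those of PFDN5 (with MYG1-AS1, at 0.41 and 0.18 TPM) and 1.81% of those of PFDN1 (with CYSTM1, at 54.1 and 56.2 TPM). In the annotation used here a lncRNA on the same strand, which the tables do not list, covers a further 25.7% of the exon bases of PFDN5. For PFDN2, PFDN4 and VBP1 no exon bases were shared with another gene. The start of PFDN2 lies 31 bp from NIT1 and that of PFDN6 55 bp from WDR46, both on the opposite strand.

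The libraries were then compared for each subunit. This comparison is between these 2 libraries and not between conditions. The test was an exact two-sided binomial test on rounded counts scaled by TMM (trimmed mean of M values) with Benjamini-Hochberg adjustment over 19714 genes. Of all genes tested, 42.2% passed the threshold of 0.05. Of the 6 subunits, 4 passed, 3 of them higher in replicate 1 (20.1% of all genes) and VBP1 higher in replicate 2 (22.1% of all genes). Expressed as replicate 2 over replicate 1, the median log2 ratio was -0.11 over the subunits and 0.021 over all genes tested. Counts of 557 or more make small differences between libraries detectable, so the share of subunits passing is also to be read against the 57% that passed among genes of 100 or more summed counts.

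Without a correction for GC content, VBP1 had the largest difference of the 6. Its log2 ratio was 0.45 (95% interval 0.30 to 0.61, exact Clopper-Pearson, counting error only), with an adjusted p of 2.6e-08 by the binomial test. PFDN5 was lower in replicate 2 by a log2 ratio of -0.29 (interval -0.40 to -0.18, adjusted p of 1.9e-06 by the same exact test). PFDN6 was lower in replicate 2 by a similar amount, with a log2 ratio of -0.27 (interval -0.41 to -0.14). The adjusted p of PFDN6 was 0.00033 by the exact test. The core pair of the complex thus differed in opposite directions by counts alone. With the trend of the ratio with GC content over all genes removed, both were lower in replicate 2, with log2 ratios of -0.41 for VBP1 and -0.25 for PFDN5.

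PFDN4 passed narrowly, with a log2 ratio of -0.19 (interval -0.35 to -0.030) and an adjusted p of 0.046 by the exact test. Scaled by library totals, where 41.5% of all genes passed, its adjusted p was 0.093 by the exact test. With all genes of at least 1 count tested, where 25% passed, it was 0.073. PFDN1 had a log2 ratio of 0.016 (interval -0.13 to 0.16) and PFDN2 one of -0.027 (interval -0.16 to 0.10), and neither passed. The binomial test counts read sampling alone. Over all genes edgeR estimated a biological coefficient of variation of 0.202 between the libraries, which stand for the same condition. With an assumed coefficient of 0.1 in edgeR's exact test, 7.69% of all genes and 0 of the 6 subunits passed, with 1 subunit at an unadjusted p under 0.05 and a smallest adjusted p of 0.27, for VBP1.

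For PFDN1 and VBP1 the ratio in TPM was larger than the ratio in counts. The log2 TPM ratio of PFDN1 was 0.30, of which 0.044 was in CPM and 0.19 was in effective length. Its deposited length was 899 bases in replicate 1 and 795 in replicate 2. The log2 TPM ratio of VBP1 was 0.68, of which 0.48 was in CPM and 0.13 was in effective length. Its deposited length was 1685 bases in replicate 1 and 1541 in replicate 2, so in both genes the shorter transcripts were given more weight in replicate 2. The length terms of PFDN2, PFDN4, PFDN5 and PFDN6 lay between -0.0020 and 0.010. Over 13840 genes of 100 or more summed counts, the length term ran from -0.23 (5th percentile) to 0.19 (95th percentile) around a median of 2.9e-05, with PFDN1 at percentile 95.1 and VBP1 at percentile 91.5. PFDN1 was therefore higher in replicate 2 in TPM, with overlapping bounds, while its counts did not differ detectably at this depth.

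**Figure D2:**
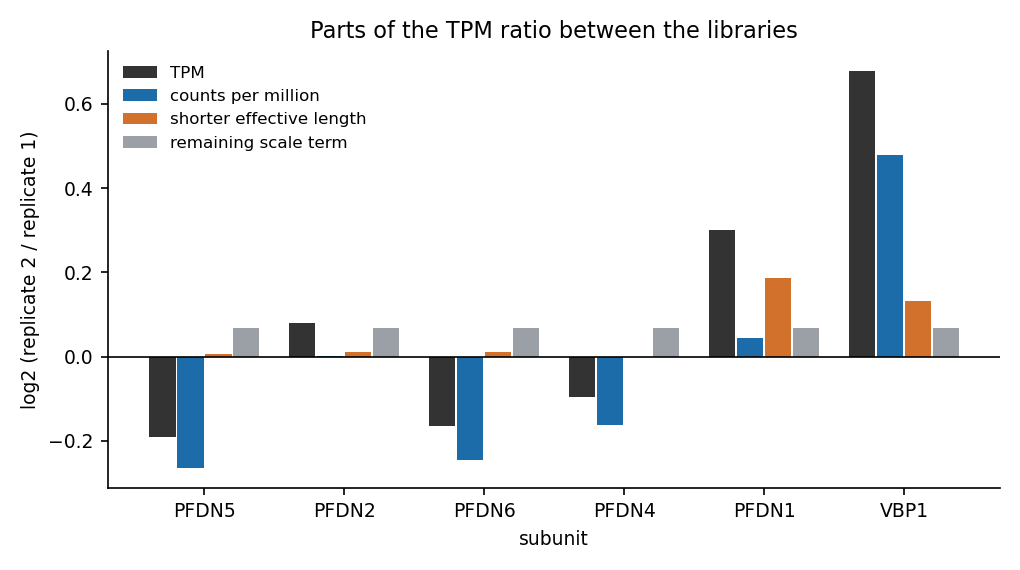
Log2 ratio of replicate 2 over replicate 1 (y axis) for each subunit (x axis), as the TPM ratio (black) and the parts that add up to it: CPM (blue), effective length (orange, positive where the length was shorter in replicate 2) and a scale term common to all genes (grey). The effective length is the larger part for PFDN1, and CPM the larger part for VBP1.

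The library ratio moved with the GC content of the transcripts over all genes, and the subunits span much of that range. VBP1, at 36.0% GC averaged over its annotated transcripts, had the lowest GC content, and PFDN6, at 54.3%, the highest. The median log2 ratio of genes of like GC content was 0.86 for VBP1, which lies just below the centre of the lowest of 50 GC classes, and -0.16 for PFDN6. With that trend removed, the log2 ratio of VBP1 was -0.41 (adjusted p of 2.0e-06 by the exact test), the reverse of its direction without the correction. VBP1 was thus higher in replicate 2 by its own counts, and lower in it than the median of genes of like GC content. The test holds counting error only and does not take in the spread of genes around that median. With the GC content of the canonical transcript only, an alternative chosen after seeing the data, the log2 ratio of VBP1 was -0.27 (adjusted p of 0.0030 by the exact test), and 26.9% of all genes passed.

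PFDN4 moved away from its GC class. At 42.6% GC its class had a median of 0.29, and its log2 ratio with the trend removed was -0.48 (adjusted p of 2.5e-08 by the exact test). Its canonical transcript has 30.7% GC, and on that scale the log2 ratio was -1.07, so the size of this difference rests on which gene model is taken. PFDN5 kept a log2 ratio of -0.25 with the trend removed (adjusted p of 0.00013 by the exact test). PFDN6 had one of -0.11 and no longer passed (adjusted p of 0.25 by the exact test). PFDN1 and PFDN2 lay within 0.02 of the medians of their GC classes. With the trend removed, 28.8% of all genes passed, and 3 of the 6 subunits did, all lower in replicate 2 (14.3% of all genes). These tests too hold counting error only and not the spread of genes within a GC class. The part of GC content in these ratios was not tested beyond this correction.

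**Figure D3:**
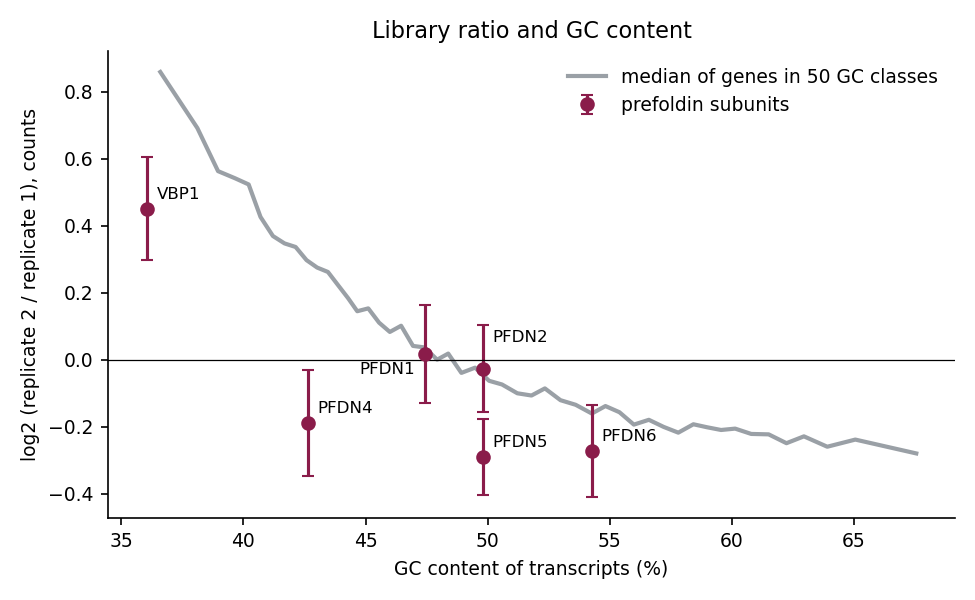
Log2 ratio of replicate 2 over replicate 1 in TMM-scaled counts (y axis) against mean GC content of the annotated transcripts in percent (x axis). The grey line joins the medians of 50 GC classes of all genes of 100 or more summed counts, and points with bars are the subunits with 95% exact intervals for counting error. VBP1, PFDN4 and PFDN5 lie below the line with intervals that do not reach it, PFDN6 lies below it with an interval that does, and PFDN1 and PFDN2 lie on it.

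The other genes that prefoldin works with were set beside it, from lists of partners and clients. Their library ratios are given without removal of the GC trend, so a shift common to genes of like GC content may be part of them. TRiC/CCT, the ring-shaped chaperonin that receives prefoldin's clients, had 8 of 8 subunit genes detected. They ran from CCT6A at 207 ± 26.5 TPM to CCT3 at 793 ± 71.1 (SD, n = 2). The level of all 8 was above that of PFDN5 in both libraries, and the median of TRiC/CCT exceeded the median of prefoldin 3.47 times in replicate 1 and 4.05 times in replicate 2 (3.76 ± 0.414). The coefficient of variation of TPM among subunits was 53.4% in replicate 1 and 40.3% in replicate 2 for prefoldin, and 68.3% and 56.8% for TRiC/CCT, so unequal levels were not particular to prefoldin. Between the libraries, 7 of the 8 TRiC/CCT genes passed the exact test, against 42.2% of all genes and 57% of those of 100 or more summed counts. Of the 7, 5 were higher in replicate 1 (20.1% of all genes), with a median log2 ratio of -0.13.

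The prefoldin-like subunits that join PFDN2 and PFDN6 were uneven as well. URI1, the scaffold of that complex, was at 70.31 TPM in replicate 1 and 89.21 in replicate 2 (79.8 ± 13.4 TPM), close to PFDN2 and PFDN6. UXT, an alpha-type subunit of the prefoldin-like complex, was at 52.13 TPM in replicate 1 and 41.56 in replicate 2 (46.8 ± 7.47 TPM). PDRG1, a beta-type subunit of that complex, was at 9.35 TPM in replicate 1 and 8.65 in replicate 2, below all 6 prefoldin subunits. By the exact test 2 of the 3 genes passed, against 42.2% of all genes and 57% of those of 100 or more summed counts. URI1 was higher in replicate 2 (22.1% of all genes), with a log2 ratio of 0.28. UXT was higher in replicate 1 (20.1% of all genes), with a log2 ratio of -0.43, and PDRG1 did not pass.

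Of the R2TP genes and their partners, all 6 were detected. The ATPases RUVBL1 and RUVBL2 were at 144 ± 8.34 and 163 ± 26.5 TPM (SD, n = 2). The adaptors PIH1D1 and RPAP3 were at 95.6 ± 8.81 and 73.5 ± 34.4 TPM, and WDR92 was lowest at 7.94 ± 1.03. POLR2E, the shared RNA polymerase subunit that binds in this assembly, was highest at 419 ± 46.7 TPM. RPAP3 differed most between the libraries, with 49.19 TPM in replicate 1 and 97.79 in replicate 2 and a log2 ratio of 1.05. That ratio holds no correction for GC content. By the exact test 5 of the 6 genes passed, against 42.2% of all genes and 57% of those of 100 or more summed counts.

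Clients and other cofactors covered a wider range. The 9 actin and tubulin genes ran from TUBB2A at 91.8 ± 7.82 TPM to ACTG1 at 4017 ± 443 (SD, n = 2). All 9 passed the exact test between the libraries (42.2% of all genes, and 57% of those of 100 or more summed counts). All were higher in replicate 1 (20.1% of all genes), with a median log2 ratio of -0.28 without a correction for GC content. Their lowest count in a library was 2745, at which small differences pass a test of counting error. Of 4 matched tubulin-folding cofactors, TBCC was lowest at 13.1 ± 0.26 TPM and TBCA highest at 219 ± 17.5, and 2 passed, both higher in replicate 1 (20.1% of all genes). Of 4 phosducin-like genes, whose proteins modulate TRiC/CCT, 3 were detected, with PDCL highest at 30.1 ± 4.94 TPM, and PDCL2 had 0 counts in both libraries, which allows up to 3 counts in each for counting error. Of the proteins named as partners of individual subunits, VHL (VBP1) was at 74.7 ± 3.22 TPM, MYC (PFDN5) at 270.0 ± 10.2 and HDAC1 (PFDN5) at 242 ± 2.91. The actin and tubulin genes belong to families with near-identical copies, so their individual levels may be less certain than those of prefoldin, which was not tested.

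**Figure D4:**
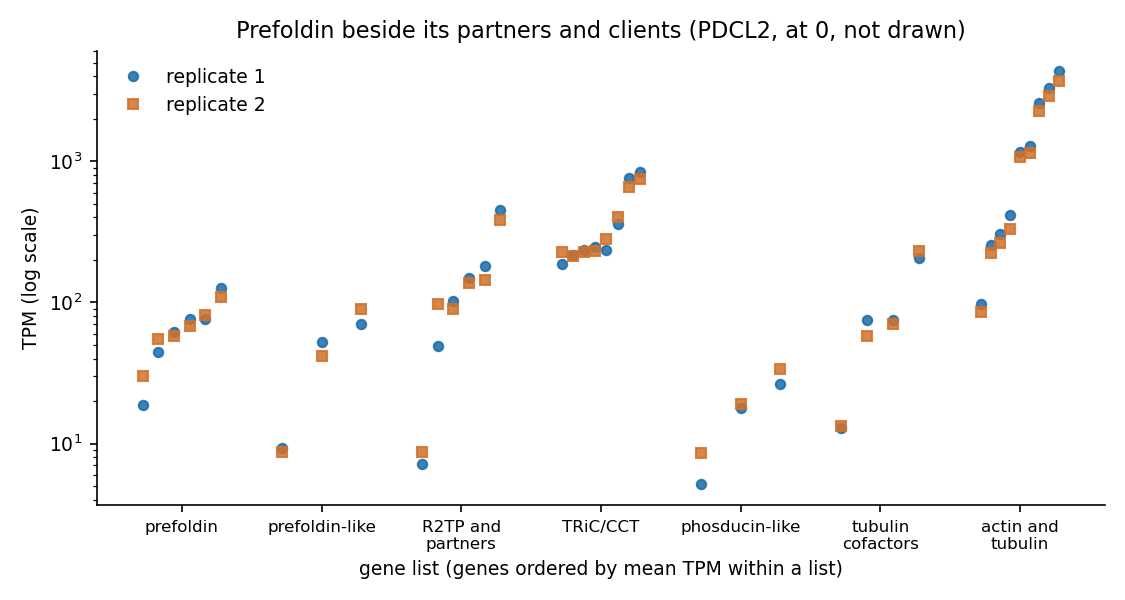
TPM on a log scale (y axis) of the genes of prefoldin and 6 related lists (x axis), ordered by mean within each list, in replicate 1 (blue circles) and replicate 2 (orange squares). The prefoldin genes lie below those of TRiC/CCT, and the actin and tubulin genes reach the highest levels.

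A table of the whole series gave the authors' value for both libraries together. In it PFDN5 was at 117 TPM, PFDN2 at 79.1, PFDN6 at 71.8, PFDN4 at 60.1, PFDN1 at 50.4 and VBP1 at 23.7. The order is that of each library, and since the values rest on the same libraries it is no separate support.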

How the data were processed

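Poly(A)+ RNA of 2 libraries was sequenced with 50 bp reads. The labels list the molecule as genomic DNA, but their protocol describes RNA. Per the labels, the authors used Trimmomatic 0.36, STAR 2.6.1c and RSEM 1.3.1 with hg19, whereas the methods name featureCounts. The expected counts deposited by the authors are estimates in which shared reads are divided among genes. TPM and FPKM, also deposited by the authors, divide counts by effective length, and are then scaled to a common sum (TPM) or to the library's reads (FPKM). FPKM was not used for results.

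Symbols, positions, exons and GC content came from GENCODE 44 lifted to GRCh37, which matched 96.1% of identifiers. TBCE, NEFL, LHX1 and PECAM1 were not matched, and WDR92 was matched as an older symbol.

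Levels are means and SDs of 2 libraries. Expected counts were rounded for the binomial test, with edgeR 4.0.16 TMM factors and a minimum summed count of 10. Log2 ratios used a pseudocount of 0.5. GC trends were medians in 50 classes, interpolated linearly. The test was tested on data simulated with counting error alone. The simulation held neither the wider spread nor the GC trend of the real libraries, so it does not speak to those. Alternatives covered scaling (DESeq2 1.42.0 size factors, totals), filters, GC, dispersion and leaving out each replicate.

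The members and lists were chosen with earlier results of these data known. Named genes were all members, all prefoldin-like, R2TP and partner genes, and the highest and lowest of the other lists, with HSPA1A beside HSPA1B. Neighbouring genes were named by position. No gene was named for a similar pattern, since 2 libraries of 1 condition give none.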

Additional observations from a re-analysis of the deposited data

How the results depend on the processing

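No paired analysis was possible because both libraries belong to 1 condition. The order of the subunits and the direction of the ratio of alpha-type to beta-type means were kept under posterior mean TPM. Leaving out 1 of the 2 libraries only gives the values of the other. The ranges that follow therefore repeat the values of each library and are no separate check. Without one replicate, the TPM of PFDN5 was 110.13 to 125.74, of PFDN2 76.79 to 81.09, of PFDN6 67.88 to 76.16, of PFDN4 58.19 to 62.18, of PFDN1 44.86 to 55.21 and of VBP1 18.66 to 29.88. The fold between the highest and lowest subunit was then 3.69 to 6.74 and the alpha to beta ratio 1.07 to 1.11. Leaving 394 nuclear copies of mitochondrial genes, which held 19.1% and 19.5% of TPM, out of the total raised PFDN5 to 146, PFDN2 to 97.8, PFDN6 to 89.2, PFDN4 to 74.6, PFDN1 to 62.0 and VBP1 to 30.1 TPM. In CPM, without length scaling, the order of the subunits changed. The fold between the highest and lowest subunit was then 2.10 and the alpha to beta ratio 1.23.

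The number of genes that passed between the libraries, 8314, was 5490 with the GC trend removed, 5013 with the trend of the canonical transcript (chosen after seeing the data) and 1516 with an assumed coefficient of variation of 0.1, where 0 subunits passed. With the GC trend removed the log2 ratio reversed for VBP1 (-0.41, or -0.27 by canonical transcript). The sign also changed for PFDN1 (-0.020, but 0.094 and not reversed by canonical transcript) and PFDN2 (0.018, or 0.076 by canonical transcript). PFDN1 and PFDN2 passed neither with nor without the correction, so no direction can be read from their signs. The cause was not tested. Each subunit and library had 557 to 1283 counts. The intervals cover counting error only, and 2 libraries of 1 condition limit what can be said of the spread.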
